A study of Mus musculus with 11 samples.

Results

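Lysyl oxidases and collagen hydroxylases are the enzymes that modify collagen before and after it leaves the cell, and the 10 genes described here were taken by symbol from the 21846 genes of the count table. They are Lox and Loxl1 to Loxl4, the lysyl oxidases, Plod1, Plod2 and Plod3, the lysyl hydroxylases, and P4ha1 and P4ha2, catalytic alpha subunits of prolyl 4-hydroxylase. All 10 were in the table, and the set was chosen with earlier results of these data known. RNA was sequenced in 11 cultures of mammary tumor cell lines established from FVBhuHER2 virgin female mice, which carry human HER2 as a transgene, a carrier status that every culture shares. MamBo89HER2stable came from tumor A, keeps high HER2 and gave 4 libraries. One of these is an untreated culture labelled AG3, taken here as the HER2-positive clone that the methods list, since the labels do not say what AG3 is. The others are 1 untreated culture, 1 given 30 µg/ml trastuzumab (an antibody against HER2) for 30 days and then none for 30 days, and 1 given it for 60 days. MamBo43HER2labile came from tumor B, is HER2-positive and gave a single untreated library, so it has no spread of its own. MamBo43 TRT is the same line after trastuzumab on the same 30-day and 60-day schedules, with 1 library each, and is listed by the study as having lost HER2. The study still detected a small share of HER2-positive cells, and islets of polygonal cells, in its long trastuzumab culture of this line. This group may therefore be a mixture. MamBo38HER2loss, which lacks surface HER2, was derived from a tumor that grew after injection of MamBo43 cells and gave 2 untreated libraries, 1 of the 30-day schedule and 1 of the 60-day schedule. Each line stands for 1 tumor or 1 outgrowth of it. Libraries of MamBo89, MamBo43 TRT and MamBo38 differ within their group in trastuzumab schedule, in the AG3 label or in a number in the sample name. The spread that p-values measure includes these differences, and the rest of it may be technical. Nothing in the labels says that libraries of a line are independent cultures.

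Collagen chains are modified in the endoplasmic reticulum. Prolyl 4-hydroxylase makes the hydroxyproline that holds the triple helix together at body temperature, and lysyl hydroxylases make hydroxylysine, which carries sugars and decides which kind of crosslink can form. Outside the cell, lysyl oxidases turn lysine and hydroxylysine of collagen and elastin into aldehydes that join fibers covalently, and in the mammary gland such crosslinks stiffen the stroma around a tumor.

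Libraries held 17040454 to 27127662 counts (median 20592201), and the limit that a count of 0 allows, 3 counts, came to between 0.114 and 0.179 CPM. CPM here is the depth-normalised count of a gene after TMM scaling, which sets libraries on one scale. A gene was called when edgeR's quasi-likelihood test gave a Benjamini-Hochberg adjusted p under 0.1 and the fold change was at least 1 on the log2 scale, the thresholds of the study. The sample names of 3 of the 4 MamBo38 libraries carry a number that no other library has, while the remaining MamBo38 library, which is untreated, carries the number of all other lines, and the labels do not say what the number is. Epithelial markers summed to 2538 to 3931 CPM in MamBo89, 3614 in MamBo43, 415 to 1852 in MamBo43 TRT and 1.39 to 2.67 in MamBo38, which lacked Epcam, Cdh1 and Krt18 almost wholly. Fibroblast and other mesenchymal markers summed to 36.1 to 96.9, 335, 7021 to 7920 and 3832 to 4550 CPM in the same order, with Lum at 0 in every library and Dpt at 0.17 CPM at most. Most of the sum in MamBo43 TRT and MamBo38 was Col1a2 (4675 and 4958, and 2446 to 3057 CPM), which is also in the fibrillar collagen list below. Pdgfra was lower in MamBo43 TRT than in MamBo38 (146.3 and 145.6 against 814 to 999.9 CPM), and Pdgfrb was higher (298 and 293 against 92.4 to 129 CPM). Endothelial markers stayed at or under 0.890 CPM in sum and adipocyte markers at or under 2.68, while immune markers summed to 7.06 to 16.9 CPM in MamBo89, 1.06 in MamBo43, 3.97 to 4.53 in MamBo43 TRT and 27.3 to 49.9 in MamBo38. Nearly all of the immune sum was Cd68, a lysosomal protein abundant in macrophages (27.1 to 49.7 CPM in MamBo38), and Ptprc, Adgre1 and Cd3e of that list were at or near 0. These marker sums move with most of the results below, and their part in those results was not tested. In bulk RNA, fewer cells of a type and less RNA per cell cannot be told apart.

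The upstream sequences of P4ha1 and Plod1, which were both called higher without HER2 in the first comparison below, show the stretch just before each start site. The letters come from RefSeq on GRCm38.p6, the 250 bases before the start, read 5′ to 3′ on the gene's strand, with matches to ACGTG or GCGTG on either strand in capitals (CACGT and CACGC are these motifs on the other strand). These are the core letters bound by hypoxia-inducible factors, which are known to drive collagen hydroxylase genes at low oxygen. The P4ha1 stretch is chr10:59323046-59323295 on the plus strand and the Plod1 stretch is chr4:147936777-147937026 on the minus strand.
P4ha1: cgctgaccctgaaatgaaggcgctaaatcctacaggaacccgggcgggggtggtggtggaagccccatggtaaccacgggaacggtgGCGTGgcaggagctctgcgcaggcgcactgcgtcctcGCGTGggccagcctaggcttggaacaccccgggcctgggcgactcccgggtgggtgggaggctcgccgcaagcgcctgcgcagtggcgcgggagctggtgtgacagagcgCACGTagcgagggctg
Plod1: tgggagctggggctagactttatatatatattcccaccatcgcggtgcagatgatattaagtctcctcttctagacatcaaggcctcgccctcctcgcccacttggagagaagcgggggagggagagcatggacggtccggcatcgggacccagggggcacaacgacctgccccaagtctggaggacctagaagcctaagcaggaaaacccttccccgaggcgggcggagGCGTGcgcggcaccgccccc
Of the 10 genes, 5 had a stretch in the table of promoters, and each of these held at least 1 match, with 4 in Plod3, 3 in P4ha1, 3 in P4ha2, 1 in Plod1 and 1 in Loxl4. Among all 27025 promoters of that length, 38.6% held a match, 16.8% held 2 or more and 2.66% held 4 or more. Plod3, which held the most matches of these 5, was called in none of the comparisons below.

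The first question was how cells without HER2 (4 MamBo38 and 2 MamBo43 TRT libraries) differed from cells with it (4 MamBo89 libraries and MamBo43). Lox, Loxl1, Loxl2, Plod1 and P4ha1 were higher without HER2, by 67.2-fold, 117-fold, 114-fold, 3.36-fold and 2.19-fold. These were 5 of 10 genes called, all higher, where 32.8% of the 12364 genes tested were called in either direction and 15.8% were called higher. The 2 groups did not overlap for 6 of the 10 genes, against 34.9% of all genes tested. The median log2 fold change was 1.44 over the 10 genes and -0.04 over all genes tested. Pairwise comparisons of the 4 kinds of culture, from 1 fit over all 11 libraries, show where each difference lay; they share libraries with one another and with the HER2 comparison, so they are not independent.

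Lox (GRCm38 chromosome 18, 52516067 to 52529867, minus strand) encodes the founding lysyl oxidase, a copper amine oxidase made as a proenzyme and freed outside the cell by procollagen C-proteinase. Lox measured 0.779 CPM in the AG3 library of MamBo89 and 0.276, 0 and 0.218 CPM in the untreated, 30-day and 60-day libraries, from 16, 6, 0 and 4 counts. It measured 9.59 CPM in MamBo43, 116 and 349 CPM in the 30-day and 60-day libraries of MamBo43 TRT, and 97.8, 129, 94.1 and 120.4 CPM in MamBo38 (untreated, untreated with the number of the other lines, 30-day and 60-day). MamBo89 was thus near the limit of detection, MamBo43 lay alone between, and all 6 libraries without HER2 stood above both. The log2 fold change without HER2 was 6.07 ± 1.21 (SE, edgeR adjusted p = 0.00159, n = 6 and 5). Its size moved with the choice of libraries, from 8.82 without MamBo43 to 3.94 when those of tumor B alone were used. The difference was 4.60 ± 0.85 in MamBo43 TRT against MamBo43 (edgeR adjusted p = 0.00319) and 4.83 ± 0.68 in MamBo43 against MamBo89 (edgeR adjusted p = 8.34e-04). Lox was thus called higher in MamBo43, which still has HER2, than in MamBo89. MamBo38 and MamBo43 TRT overlapped (94.1 to 129 and 116 to 349 CPM), and their difference of 1.07 ± 0.45, with an edgeR adjusted p of 0.0966, was not called with DESeq2 (adjusted p = 0.116) and fell to 0.08 without the 60-day library of MamBo43 TRT.

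Loxl1 (chromosome 9, 58287738 to 58313186, minus strand), which encodes the oxidase best known for crosslinking elastin, split the 11 libraries into 2 separate sets. It measured 0.390, 1.66, 0.524 and 0.762 CPM in MamBo89 (AG3, untreated, 30-day and 60-day) and 0.822 CPM in MamBo43. It measured 84.1 and 121 CPM in MamBo43 TRT (30-day and 60-day) and 93.7, 83.9, 106 and 109 CPM in MamBo38. No library lay between 1.66 and 83.9 CPM. The log2 fold change without HER2 was 6.87 ± 0.37 (edgeR adjusted p = 6.35e-07), and within the MamBo43 line it was 6.95 ± 0.71 (edgeR adjusted p = 1.58e-04). MamBo43 and MamBo89 were neighbours that did not differ beyond their spread (log2 fold change -0.05 ± 0.61), nor did MamBo43 TRT and MamBo38 (0.06 ± 0.33). Elastin itself (Eln), a substrate of this enzyme, did not follow it, with 54.7 CPM in MamBo43, 0.0980 and 0.499 CPM in MamBo43 TRT, 0.682 to 1.70 CPM in MamBo89 and 0 in all 4 MamBo38 libraries.

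Loxl2 (chromosome 14, 69609068 to 69695834, plus strand) encodes an oxidase with scavenger receptor domains that crosslinks basement membrane collagen and is known for a part in epithelial-mesenchymal transition. It measured 0.146, 0.322, 0.233 and 0.326 CPM in MamBo89, 0.587 CPM in MamBo43, 0.980 and 7.25 CPM in MamBo43 TRT and 51.1, 68.6, 51.3 and 50.3 CPM in MamBo38. Only MamBo38 had it at a high level, and the groups with and without HER2 did not overlap, although the 30-day library of MamBo43 TRT lay close to MamBo43. MamBo38 exceeded MamBo43 TRT by 3.73 ± 0.62 on the log2 scale, 13.3-fold (edgeR adjusted p = 0.00177). The rise from MamBo43 to MamBo43 TRT, 2.81 ± 0.94 (edgeR adjusted p = 0.0450), rested on the 60-day library, without which it was 0.73 (edgeR adjusted p = 0.311). Counts of Loxl2 are less certain than those of the other genes, since 43.6% of its 75-base exon windows, the read length, also occur in other annotated genes, 42.7% in the pseudogene Gm21451, which is not listed in the count table. Among the libraries of tumor B alone the HER2 difference was 5.97 with an edgeR adjusted p of 0.132.

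Loxl3 (chromosome 6, 83034173 to 83052562, plus strand), another oxidase with scavenger receptor domains, did not follow this order. It measured 120.3, 119.9, 72.7 and 149 CPM in MamBo89, 68.2 CPM in MamBo43, 40.4 and 41.8 CPM in MamBo43 TRT and 60.5, 92.2, 71.0 and 76.9 CPM in MamBo38. MamBo89 reached highest and MamBo43 TRT lay lowest, while MamBo43 lay inside the range of MamBo38. Its log2 fold change without HER2 was -0.74 ± 0.27 (edgeR adjusted p = 0.0373), under the fold of the call, and the 2 groups overlapped. MamBo43 TRT against MamBo38 gave -0.87 ± 0.26 (edgeR adjusted p = 0.0300), also under that fold. It became a call, -1.17 with an edgeR adjusted p of 0.0359, when the number in the sample names was a covariate. The kit keeps no strand, and 6.87% of the 75-base windows of Loxl3 also belong to Htra2 on the opposite strand.

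Loxl4 (chromosome 19, 42593982 to 42612813, minus strand), the remaining scavenger receptor type, varied widely within groups. It measured 0.0487 CPM in the AG3 library and 11.6, 13.1 and 2.88 CPM in the other MamBo89 libraries, 167 CPM in MamBo43, 705 and 115 CPM in MamBo43 TRT and 40.2, 66.3, 34.7 and 34.7 CPM in MamBo38. The 30-day culture of MamBo43, taken 30 days after the drug ended, was the highest of all 11, and MamBo43 lay between the 2 MamBo43 TRT libraries. MamBo43 exceeded MamBo89 by 4.60 ± 1.13 on the log2 scale (edgeR adjusted p = 0.0167), and MamBo38 exceeded MamBo89 by 2.67 ± 0.89 (edgeR adjusted p = 0.0222). Neither was called among the untreated libraries alone (edgeR adjusted p = 0.214 and 0.150). The HER2 comparison gave 2.08 ± 1.41 (edgeR adjusted p = 0.236) and became a call, 4.59 with an edgeR adjusted p of 0.0165, when MamBo43 was left out. MamBo43 TRT against MamBo38, 3.22 ± 0.97 (edgeR adjusted p = 0.0301), fell to 1.39 (edgeR adjusted p = 0.443) without the 30-day library of MamBo43 TRT.

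**Figure D1:**
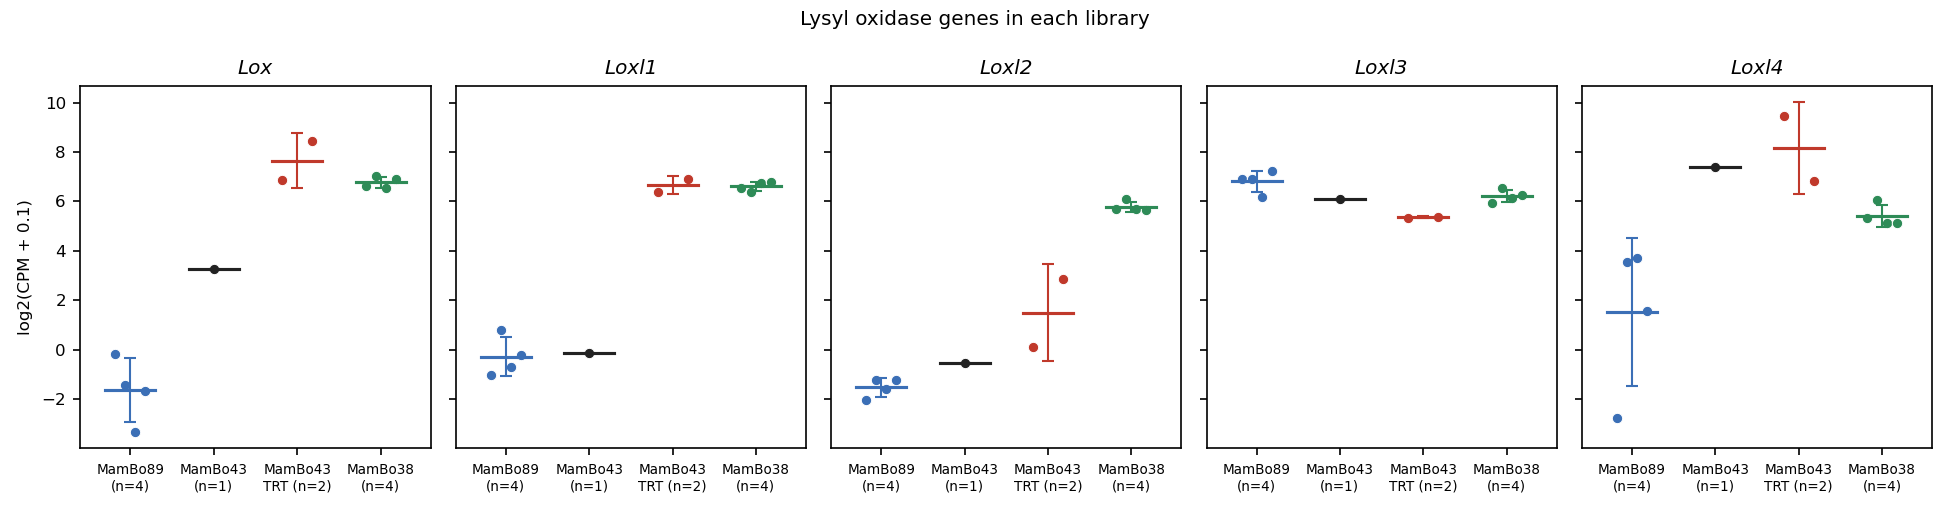
The level of each lysyl oxidase gene in the 11 libraries, as log2(CPM + 0.1) on a shared axis, with points for libraries, horizontal lines for group means and bars for 1 SD where a group has 2 or more libraries. Loxl1 falls into a low set (MamBo89 and MamBo43, up to 1.66 CPM) and a high set (MamBo43 TRT and MamBo38, from 83.9 CPM), Loxl2 is high in MamBo38 alone, and Loxl3 is at 40.4 to 149 CPM everywhere.

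The makeup of the lysyl oxidase family also differed between the lines. Levels per kilobase of exon, which can be compared between genes, summed over the 5 genes to 19.1 to 33.5 CPM per kilobase in MamBo89, 56.9 in MamBo43, 226 and 147 in MamBo43 TRT and 81.0 to 101.0 in MamBo38. Loxl3 made up 82.7% to 98.8% of that sum in MamBo89. Loxl4 made up 69.8% and Loxl3 26.1% in MamBo43. After trastuzumab, Loxl4 made up 74.0% in the 30-day library of MamBo43 TRT, whereas Lox (49.6%), Loxl1 (24.9%) and Loxl4 (18.5%) shared the 60-day library. MamBo38 had the most even makeup, with Loxl1 at 25.2% to 37.8%, Lox at 23.2% to 27.2%, Loxl3 at 16.2% to 19.8%, Loxl2 at 10.1% to 12.6% and Loxl4 at 8.91% to 15.6%. Loxl2 stayed at or under 0.911% in every library outside MamBo38.

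**Figure D2:**
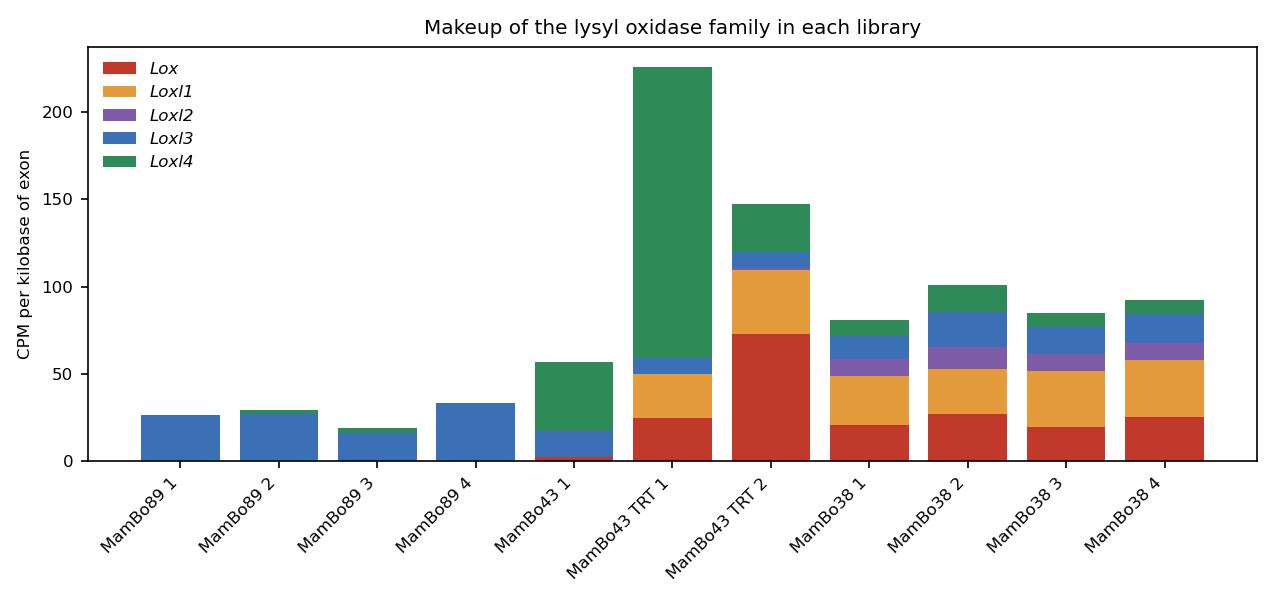
Stacked bars of the 5 lysyl oxidase genes in each library, in CPM per kilobase of exon, starting at 0. MamBo89 (1 is AG3, 2 untreated, 3 the 30-day and 4 the 60-day culture) is nearly all Loxl3 at a total of 19.1 to 33.5, MamBo43 and the 30-day MamBo43 TRT library are mostly Loxl4, and the 4 MamBo38 libraries hold all 5 genes at a total of 81.0 to 101.0.

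Among the lysyl hydroxylases, Plod1 (chromosome 4, 147909753 to 147936767, minus strand), whose product hydroxylates lysines of the collagen helix, was higher without HER2. It measured 27.2, 141, 118 and 128 CPM in MamBo89 (AG3, untreated, 30-day and 60-day), 104 CPM in MamBo43, 253 and 238 CPM in MamBo43 TRT and 413, 306, 458 and 436 CPM in MamBo38. The groups with and without HER2 did not overlap, and MamBo43 lay within the range of MamBo89. The log2 fold change without HER2 was 1.75 ± 0.37 (edgeR adjusted p = 0.00237), but the edgeR adjusted p was 0.114 when tumor of origin was a term in the fit. MamBo43 TRT against MamBo43 gave 1.24 ± 0.72 (edgeR adjusted p = 0.214).

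Plod2 (chromosome 9, 92542223 to 92608428, plus strand), whose product hydroxylates the telopeptide lysines that lead to the more stable pyridinoline crosslinks, singled out MamBo43. It measured 366 CPM in MamBo43, against 114, 118, 108 and 139 CPM in MamBo89, 159.6 and 172 CPM in MamBo43 TRT and 103, 128, 97.7 and 115 CPM in MamBo38. MamBo43 stood far above the next library, at 172 CPM, and MamBo89 and MamBo38 overlapped. MamBo43 exceeded MamBo89 by 1.61 ± 0.17 on the log2 scale (edgeR adjusted p = 1.56e-04). MamBo43 TRT fell by 1.15 ± 0.20 from MamBo43 (edgeR adjusted p = 0.00251), and MamBo38 was lower than MamBo43 by -1.73 ± 0.17 (edgeR adjusted p = 2.77e-05). Against all 5 libraries with HER2 the difference came to -0.40 ± 0.33 (edgeR adjusted p = 0.331), whereas it was -1.54 with an edgeR adjusted p of 0.0129 among the libraries of tumor B alone. Plod2 was thus the one gene of the 10 called lower after trastuzumab in MamBo43.

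Plod3 (chromosome 5, 136987019 to 136996648, plus strand), whose product also adds the sugars to hydroxylysine, was called in none of the 8 comparisons. Its levels ran from 99.7 to 155 CPM in MamBo89 and from 119.9 to 183 CPM in MamBo38, with 142 CPM in MamBo43 and 149 and 186 CPM in MamBo43 TRT. The log2 fold change without HER2 was 0.23 ± 0.15 (edgeR adjusted p = 0.210). Of its 75-base windows, 8.05% also belong to Znhit1 on the opposite strand. Per kilobase, Plod1 made up 47.3% to 53.6% of the 3 lysyl hydroxylases in MamBo38, Plod2 made up 59.2% in MamBo43 and Plod3 made up 39.7% to 47.5% in MamBo89.

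P4ha1 (chromosome 10, 59323296 to 59373304, plus strand), the main catalytic subunit of prolyl 4-hydroxylase, was called higher in all 3 comparisons of a line without HER2 with a line that has it. It measured 145, 438, 354 and 342 CPM in MamBo89, 161 CPM in MamBo43, 488 and 542 CPM in MamBo43 TRT and 753, 755, 654 and 608 CPM in MamBo38. The 6 libraries without HER2 all stood above the 5 with it, and AG3 and MamBo43 were lowest. The log2 fold change without HER2 was 1.13 ± 0.29 (edgeR adjusted p = 0.00732). It was 1.67 ± 0.51 in MamBo43 TRT against MamBo43 (edgeR adjusted p = 0.0306) and 2.10 ± 0.50 in MamBo38 against MamBo43 (edgeR adjusted p = 0.00663). The HER2 difference was just under the fold of the call, 0.98 in each case, when either MamBo43 or AG3 was left out. Without AG3, MamBo38 against MamBo89 was 0.89, also under that fold, and MamBo43 was called lower than the other MamBo89 libraries (-1.18, edgeR adjusted p = 0.00172).

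P4ha2 (chromosome 11, 54100095 to 54131665, plus strand), an alternative catalytic subunit, showed the same order at a lower level. It measured 12.7, 73.9, 53.0 and 66.0 CPM in MamBo89, 43.4 CPM in MamBo43, 83.2 and 74.4 CPM in MamBo43 TRT and 111, 103, 109 and 97.0 CPM in MamBo38. The groups with and without HER2 did not overlap, though the highest MamBo89 library (73.9) came next to the lower MamBo43 TRT library (74.4). The log2 fold change without HER2 was 0.94 ± 0.35 (edgeR adjusted p = 0.0402), under the fold of the call, and was called at 1.01 to 1.12 without the 60-day MamBo43 TRT library, the untreated MamBo89 library other than AG3 or the 60-day MamBo89 library. MamBo38 against MamBo89 was called at 1.03 ± 0.40 (edgeR adjusted p = 0.0434), and it was 0.72 without AG3. Per kilobase, P4ha1 made up 84.9% to 94.5% of the 2 subunits in every library, so their makeup hardly varied while their sum ran from 37.3 to 118 CPM per kilobase in MamBo89, 46.1 in MamBo43, 132 and 144 in MamBo43 TRT and 163 to 201 in MamBo38.

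**Figure D3:**
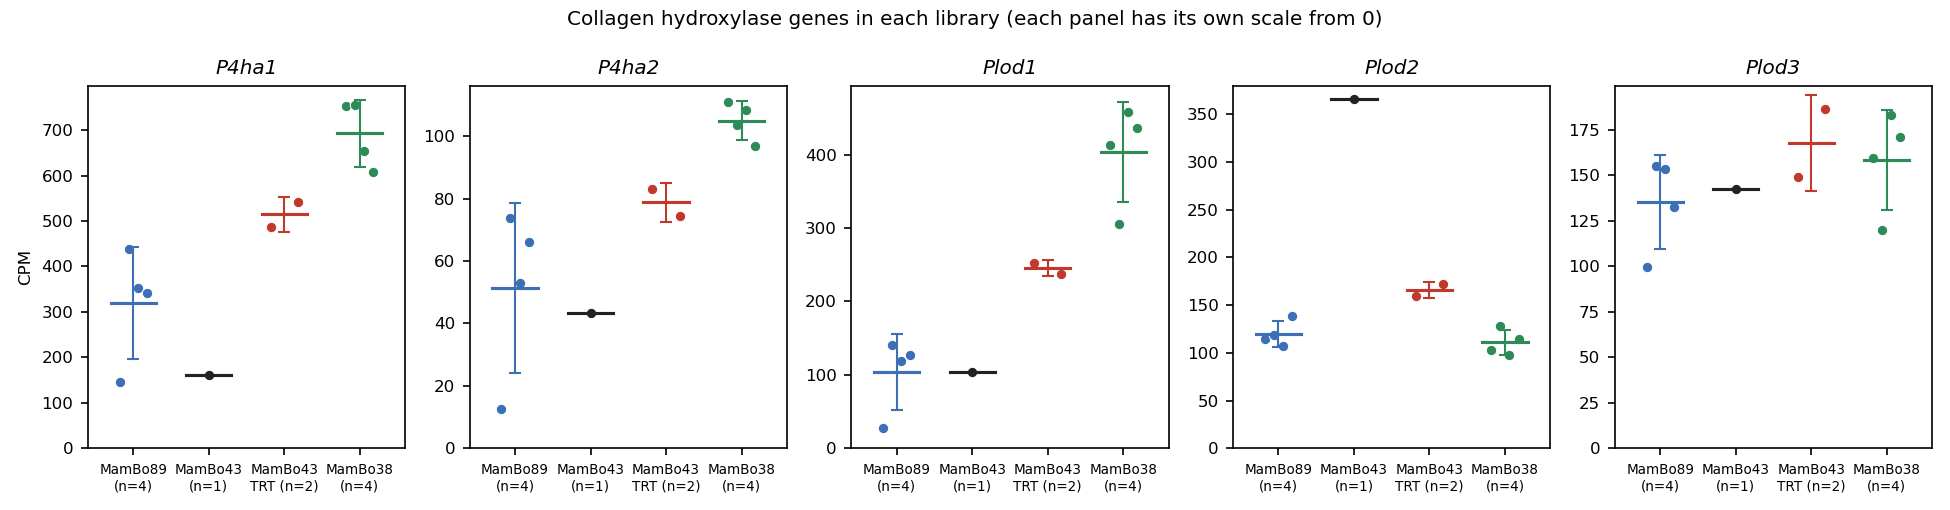
The level of each collagen hydroxylase gene in the 11 libraries, in CPM on an axis from 0 that differs between panels, with points for libraries, horizontal lines for group means and bars for 1 SD where a group has 2 or more libraries. P4ha1 is at 488 CPM or more in every library without HER2 and at 438 or less with it, Plod2 stands at 366 CPM in MamBo43, and Plod3 overlaps between all groups with more than 1 library.

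Counted by comparison, MamBo38 against MamBo89 called 7 of 10 genes, all higher, where 41.9% of the 13782 genes tested were called and 19.9% were called higher. MamBo38 against MamBo43, the line it came from, called 5 higher (Lox, Loxl1, Loxl2, Plod1 and P4ha1) and Plod2 lower, where 35.9% of all genes were called, 17.4% higher and 18.5% lower. MamBo43 TRT against MamBo43 called 4 higher (Lox, Loxl1, Loxl2 and P4ha1) and Plod2 lower, where 29.1% were called, 13.6% higher and 15.5% lower. MamBo43 against MamBo89, both with HER2, called Lox, Loxl4 and Plod2 higher, 3 of 10 where 18.9% were called and 11% were called higher. MamBo43 TRT against MamBo38, both without HER2, called Lox and Loxl4 higher and Loxl2 lower, 3 of 10 where 20.4% were called, 10.2% higher and 10.2% lower. Each of the 2 higher calls in that comparison was lost without 1 of the MamBo43 TRT libraries. Both were also lost when the number in the sample names was a covariate. Lox was then 0.84 (edgeR adjusted p = 0.432) and Loxl4 2.62 (edgeR adjusted p = 0.294) on the log2 scale. Loxl2 kept its lower call in that fit, and Loxl3 was called lower as well (-1.17, edgeR adjusted p = 0.0359).

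**Figure D4:**
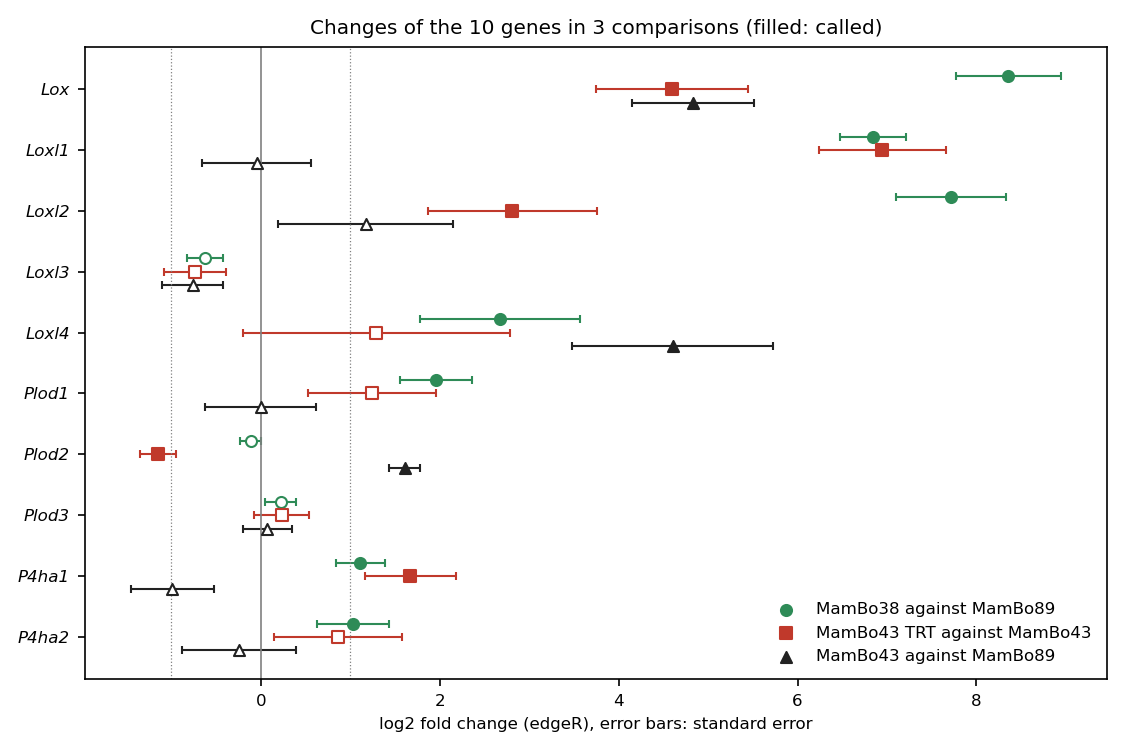
Log2 fold changes of the 10 genes from edgeR, with bars for the standard error, in MamBo38 against MamBo89 (green circles), MamBo43 TRT against MamBo43 (red squares) and MamBo43 against MamBo89 (black triangles); filled symbols are called and dotted lines mark a log2 fold change of 1 in either direction. Loxl1 differs by 6.84 and 6.95 in the first pair of comparisons and by -0.05 in the last, while Plod2 is 1.61 higher in MamBo43 than in MamBo89 and fell by 1.15 after trastuzumab.

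Trastuzumab within a line that kept its HER2 status called none of these genes. In MamBo89 (2 treated against 2 untreated), edgeR called 0 of the 8 genes tested, Lox and Loxl2 being under the filter on low counts, and 0% of all 12046 genes. DESeq2 also called 0 of these genes and 3 of all genes, and 1.54% of all genes had an unadjusted p under 0.05 with edgeR, 0 of them among the 8. In MamBo38, edgeR called 0 of 10 and 0% of all 11861 genes, and DESeq2 called 0 of 10 and 4 of all genes. There, 4.24% of all genes had an unadjusted p under 0.05 with edgeR, among them Loxl4 with a log2 fold change of -0.63 ± 0.24.

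The effect of trastuzumab in MamBo43 was set against that in the other lines by a test of the difference itself, added after the data were seen. It differed from the effect in MamBo38 for 4 of 10 genes (Lox, Loxl1 and P4ha1 more positive, Plod2 more negative), where 19.6% of all genes were called, and from the effect in MamBo89 for 3 of 10 (Lox, Loxl1 and Plod2), where 22.2% were called. These comparisons share the single untreated MamBo43 library.

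Libraries within a line also differed. In MamBo89, AG3 lay below the other 3 libraries in 7 of the 10 genes, with Plod1 4.75-fold and P4ha2 5.06-fold lower than their mean, and standard errors of the trastuzumab effect there ran from 0.24 for Plod2 to 1.56 for Loxl4. In MamBo38, the library with the number of the other lines lay above the other 3 in 6 genes and below them in 3. How many of all genes lay outside the others in AG3 or in this library was not counted. The counts are therefore no result particular to the 10 genes. The 2 MamBo43 TRT libraries differed 7.40-fold in Loxl2, 6.15-fold in Loxl4 and 2.99-fold in Lox, but by at most 1.43-fold in the other 7 genes. In the 30-day library, Epcam, an epithelial adhesion molecule, was at 158.5 CPM and Acta2, smooth muscle actin, at 69.1 CPM, and in the 60-day library they were at 30.8 and 467 CPM. Cdh1, Krt8, Krt18, Cldn3 and Cldn7 were also lower in the 60-day library. Other markers of the same lists did not follow. From the 30-day to the 60-day library, Krt14 went from 9.90 to 111 CPM and Krt5 from 0.0490 to 3.84 CPM. Pdgfra (146.3 and 145.6 CPM) and Pdgfrb (298 and 293 CPM) hardly differed.

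Genes that act beside these enzymes were described by lists and by the HER2 comparison, in which 15.8% of all genes tested were called higher and 17% lower. Of 14 tested genes of collagen modification and folding, 5 were higher and 1 was lower (median log2 fold change 0.69, against -0.04 over all genes tested). Fkbp10, a prolyl isomerase that works with the telopeptide lysyl hydroxylase, had 83.2 to 171 CPM without HER2 and 0.146 to 3.01 CPM with it, a difference of 7.14 ± 0.72 on the log2 scale (edgeR adjusted p = 2.11e-05). P3h1, which makes 3-hydroxyproline, was higher by 1.62 ± 0.20 (edgeR adjusted p = 6.68e-05). P4ha3, the last prolyl 4-hydroxylase alpha subunit, was at 2.65 to 5.34 CPM without HER2, 0.196 CPM in MamBo43 and 0 in the 4 MamBo89 libraries.

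Of 9 tested genes of procollagen export and processing, 4 were higher and 0 lower (median 1.91). Adamts14 and Adamts2, which cut off the N-propeptide, rose by 4.78 ± 0.44 (edgeR adjusted p = 1.16e-05) and 3.49 ± 0.48 (edgeR adjusted p = 1.49e-04). Of the 10 fibrillar collagen genes tested, 6 were higher and 4 lower (median 3.31). Col1a2, a chain of type I collagen, was higher by 7.46 ± 2.18 (edgeR adjusted p = 0.0139), with 97.9 CPM in MamBo43 and at most 0.117 CPM in MamBo89, and the 4 lower genes were Col2a1, Col11a1, Col11a2 and Col27a1, of which the first 3 are collagens of cartilage. With untreated libraries only, 1 of the 10 was called higher and 2 lower, where 3477 of all genes were called, against 4052 with all libraries. Of 9 elastic fiber genes tested, 5 were higher and Eln was lower (median 3.09), with Emilin2, a glycoprotein of elastic fibers, 6.37 ± 0.58 higher (edgeR adjusted p = 1.20e-05). Of 5 fibril partners of lysyl oxidases tested, 3 were higher and 0 lower (median 3.16), namely Bgn (6.32 ± 1.91, edgeR adjusted p = 0.0163), Fn1 (4.96 ± 0.68, edgeR adjusted p = 1.43e-04) and Sparc (3.16 ± 0.92, edgeR adjusted p = 0.0137). Among the untreated libraries 1 of the 5 was called higher, Bgn (edgeR adjusted p = 0.235) and Sparc losing their calls, and Sparc was 1.37 with an edgeR adjusted p of 0.425 when tumor of origin was a term. Leaving out 1 library moved Bgn between 5.62 and 12.96, the latter without MamBo43, which had 40.8 CPM where MamBo89 had at most 0.109.

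Of 10 tested genes for other hydroxylases that use iron and 2-oxoglutarate, as the collagen hydroxylases do, 1 was higher and 2 were lower, shares near those of all genes. P4htm was higher, at 0.342 to 1.72 CPM without HER2 and at most 0.235 CPM with it, and Egln3 and Egln1, which hydroxylate hypoxia-inducible factor, were lower by -2.39 ± 0.38 (edgeR adjusted p = 3.57e-04) and -1.01 ± 0.25 (edgeR adjusted p = 0.00571). The Egln1 difference did not keep its call, with -1.09 to -0.15 over the alternatives and -1.16 to -0.78 when 1 library was left out. MamBo43, at 74.2 CPM, lay inside the Egln1 range without HER2 (52.7 to 82.5 CPM). Of 12 target genes of that factor, 2 were higher, with Adm 6.19 ± 0.49 (edgeR adjusted p = 5.30e-06), and 4 were lower, with Car9 -2.83 ± 0.74 (edgeR adjusted p = 0.00765), and their median was -0.74. Among the libraries of tumor B alone that split turned to 5 higher and 1 lower. Within MamBo43 alone, trastuzumab gave 4 higher and 1 lower of the same 12, and in collagen modification and folding 3 of 15 were higher (Fkbp10, Crtap and P4ha3) and 0 lower, where 13.6% of all genes were called higher and 15.5% lower.

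**Figure D5:**
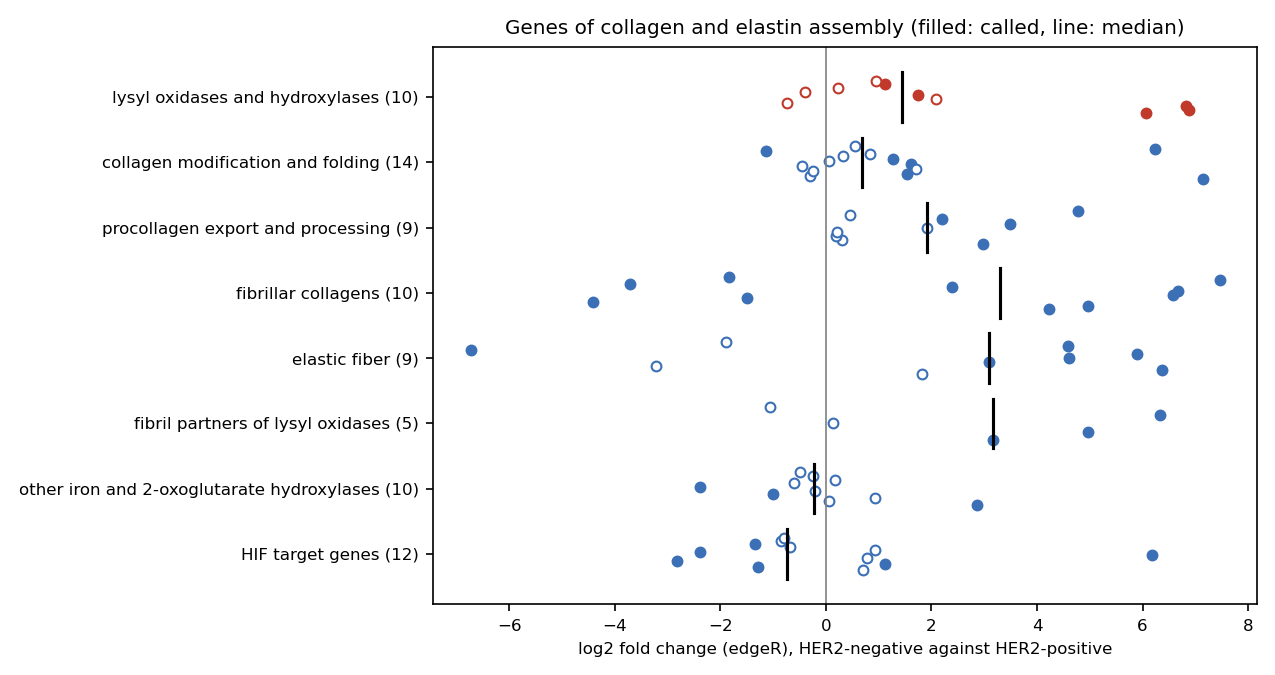
Log2 fold changes (edgeR, HER2-negative against HER2-positive) of the 10 genes and of 7 lists of genes that act beside them, with filled points for called genes, black lines for medians and the number tested in brackets. The medians are 1.44 for the 10 genes, 3.31 for fibrillar collagens and -0.74 for the target genes of hypoxia-inducible factor.

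For each of the 10 genes, the tested gene with the most similar pattern over the 11 libraries was found by Pearson correlation of log2(CPM + 1), given as a description since the libraries fall into few lines. These were Col5a2 for Lox (r = 0.993), Osr2 for Loxl1 (0.997), Rspo2 for Loxl2 (0.992), Card6 for Loxl3 (0.985) and Anxa8 for Loxl4 (0.960). Among the hydroxylases they were Ebf4 for Plod1 (0.990), Slc39a4 for Plod2 (0.968), Rps20 for Plod3 (0.941), Chst11 for P4ha1 (0.988) and Prkag1 for P4ha2 (0.986). Col5a2, a chain of the collagen that starts type I fibrils, rose from at most 0.109 CPM in MamBo89 to 16.2 CPM in MamBo43, 419 and 792 CPM in MamBo43 TRT and 138 to 239 CPM in MamBo38, the order that Lox showed.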

How the data were processed

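RNA from 11 cultures was sequenced as 75-base single reads from a TruSeq library kit that keeps no strand. The authors made expected counts per gene with STAR 2.5 and RSEM 1.3.0 on mm10, and the deposited expected counts are all whole numbers; the annotation behind them is not given in the sources used here. Groups came from the sample titles. Counts were scaled with TMM, filtered with filterByExpr (minimum count 10, total 15) and tested with edgeR 4.0.16 (quasi-likelihood, prior count 0.125, R 4.3.3), adjusted over all genes tested. The 5 pairwise comparisons came from 1 fit with a mean for each of the 4 groups, in which the lone MamBo43 library is assumed to vary like the others. The 2 trastuzumab comparisons used 4 libraries each. DESeq2 1.42.0, other scaling and filters, covariates, subsets and leaving out each library were alternatives. The fits were also run on simulated data, and the outcome is not reported here. Coordinates, exon lengths and shared windows came from GENCODE M21 (GRCm38). Genes named with values were the 10 members, called genes with large changes in each list and a closest pattern. Single cell type markers named with values, such as Epcam, Acta2, Cd68 and Pdgfra, were picked from the marker lists. Crtap, Col2a1, Col11a1, Col11a2 and Col27a1 were named after their values were seen. The members and lists were chosen with earlier results of these data known. The limits given for a count of 0 cover counting error only, as reads carry no molecular identifiers.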

Additional observations from a re-analysis of the deposited data

Results flagged for a closer look

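Single libraries stood far from the others of their set in 6 of 40 checks of a set and a gene. In libraries of 1 line, chance alone would mark about 1 in 20 checks. That rate does not hold for 5 of the 6, which come from sets that join lines, and the 3 values of MamBo43 restate line differences given above. Within a line, Loxl2 in the untreated MamBo38 library that carries the number of the other lines was at 68.6 CPM, against 51.3 CPM in the nearest of the other 3, which share another number. Among the 6 libraries without HER2, Lox in the 60-day MamBo43 TRT library was at 349 CPM, against 129 CPM in the next, and Loxl4 in the 30-day MamBo43 TRT library was at 705 CPM, against 115 CPM. Among the 5 libraries with HER2, MamBo43 stood apart in Lox (9.59 CPM, next 0.779), Loxl4 (167 CPM, next 13.1) and Plod2 (366 CPM, next 139).

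The effect of trastuzumab differed between lines in a test of the difference itself, added after the data were seen, from an edgeR fit with a mean for each line and treatment. The effect in MamBo43 exceeded that in MamBo38 by 4.69 ± 0.91 on the log2 scale for Lox (edgeR adjusted p = 0.0142), by 6.68 ± 0.77 for Loxl1 (edgeR adjusted p = 0.00193) and by 1.94 ± 0.66 for P4ha1 (edgeR adjusted p = 0.0884), and for Plod2 the difference was -1.01 ± 0.29 (edgeR adjusted p = 0.0520). Those were 4 of 10 genes, where 19.6% of all genes tested were called. Against MamBo89 the difference was 6.75 ± 1.38 for Lox (edgeR adjusted p = 0.0180), 7.62 ± 0.87 for Loxl1 (edgeR adjusted p = 0.00323) and -1.23 ± 0.29 for Plod2 (edgeR adjusted p = 0.0272), 3 of 10 where 22.2% of all genes were called. Leaving out the 60-day MamBo38 library raised the edgeR adjusted p to 0.187 for Plod2 and 0.218 for P4ha1, and leaving out AG3 raised that of Lox against MamBo89 to 0.106. These differences share the single untreated MamBo43 library.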

How the results depend on the processing

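Libraries were not paired by replicate, because the titles carry no replicate numbers. The titles do give the trastuzumab schedule, and matching libraries of different lines by schedule was not tested. No called gene reversed its direction under any alternative. Requiring at least 10 counts in every library, which leaves 6 of the 10 genes to test and removes those that are nearly absent with HER2, gave 2 called genes in the HER2 comparison, 3 in MamBo38 against MamBo89, 2 in MamBo43 TRT against MamBo43, 3 in MamBo38 against MamBo43, 1 in MamBo43 against MamBo89 and 0 in MamBo43 TRT against MamBo38. Over all genes that filter called 2597, 3038, 2462, 2810, 1391 and 1318 in the same order, against 4052, 5772, 4008, 4946, 2604 and 2818 with the main filter. Using only the libraries that carry the number shared by all lines leaves 1 MamBo38 library. MamBo38 against MamBo89 then gave 3.27 for Loxl4, 1.56 for Plod1 and 1.01 for P4ha2 on the log2 scale. These genes were called in the main fit but not there. Leaving out 1 library at a time gave 4 to 6 called genes in the HER2 comparison, 5 to 7 in MamBo38 against MamBo89, 4 to 5 in MamBo43 TRT against MamBo43, 6 to 6 in MamBo38 against MamBo43, 3 to 4 in MamBo43 against MamBo89, 2 to 2 in MamBo43 TRT against MamBo38, 0 to 4 for trastuzumab in MamBo89 and 0 to 0 in MamBo38. The 4 calls appeared without the other untreated MamBo89 library, when the treated cultures were set against AG3 alone (Loxl4 7.15, Plod1 2.16, P4ha1 1.25 and P4ha2 2.21 higher on the log2 scale), a setting that called 2296 of all genes against 0. Lox and Loxl4 received no adjusted p from DESeq2 in the HER2 comparison, which called 4 of the other 8 genes. It called 3930 of all genes there, against 4052 with edgeR. Plod1 in MamBo38 against MamBo43 lost its call with the library number as a covariate (edgeR adjusted p = 0.172). So did P4ha2 in MamBo38 against MamBo89 (edgeR adjusted p = 0.208). In MamBo43 TRT against MamBo38, Lox (edgeR adjusted p = 0.432) and Loxl4 (edgeR adjusted p = 0.294) lost theirs too, while Loxl3 became called lower. The cause was not tested. Depth limits Lox, Loxl1 and Loxl2 in MamBo89, where counts run from 0 to 36.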
